A study of Mus musculus with 15 samples.

Results

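Endoplasmic reticulum (ER) chaperones and genes of the integrated stress response were followed as a set of 31 genes in RNA from PDGFRβ-positive cells of mouse brain. The members were chosen by name, and each was found in the authors' table by its numeric Entrez Gene ID. All 31 of 31 had values, among 17892 genes with values, and all 31 passed the filter on low counts with which 14853 genes were tested. The cells fall into 4 groups. There were 4 KO HI libraries, from miR-210 knockout mice 24 h after neonatal hypoxia-ischemia (HI, a fall of blood flow and of oxygen in the newborn brain), and 4 WT HI libraries, from wild-type mice 24 h after HI. The uninjured groups were 4 KO sham and 3 WT sham libraries. The labels give genotype, treatment and a replicate number for each library; strain, age at injury, the knockout allele and how cells or animals were pooled are not given in the sources used here. Nothing says that replicates are separate animals, so p-values measure the spread between libraries, which may be technical.

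The ER folds secreted and membrane proteins, and a load of unfolded protein sets off the unfolded protein response. The sensors ATF6, IRE1 (gene Ern1) and PERK (gene Eif2ak3) start it: ATF6 is cut into a transcription factor, IRE1 splices the mRNA of the transcription factor XBP1, and PERK phosphorylates the translation factor eIF2α. ATF6 and XBP1 raise chaperones and ER-associated degradation, the route that sends misfolded proteins to the proteasome. The PERK branch slows translation and favours synthesis of ATF4, a factor that other eIF2α kinases also activate, which is why that branch is called the integrated stress response. Pericytes, the mural cells of capillaries, secrete basement membrane proteins through the ER. The table counts all transcripts of a gene together, so it does not separate spliced from unspliced Xbp1, and it does not measure the translation of Atf4 or the cleavage of ATF6.

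Total expected counts ran from 15436385 to 18118697 per library. Levels are given as CPM, counts scaled to a common normalized library size. The sorted receptor, Pdgfrb, ran from 194 to 596 CPM in KO HI, 751 to 1049 in WT HI, 251 to 785 in KO sham and 688 to 987 in WT sham libraries. Markers of other cells were present as well. The summed level of 10 microglia markers was 6175 to 13168 CPM in KO HI, 1808 to 4821 in WT HI, 3371 to 6035 in KO sham and 2526 to 3583 in WT sham. Of the microglia markers 10 of 10 were called higher in KO HI than in WT HI. Neuron markers averaged above 2.5 log2 CPM in 5 libraries, KO HI 2 and 3, KO sham 1 and 3 and WT sham 2. Plasma and B cell markers, of cells rich in ER, summed to at most 21.9 CPM in any library. The summed level of 7 choroid plexus markers was 1383 to 53509 CPM in KO HI and 127 to 8519 CPM in WT HI. In sham libraries it was 150.0 to 26937 CPM in KO and 1193 to 11571 CPM in WT. In these bulk samples fewer cells of a type and less RNA per cell cannot be told apart.

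The promoters of several chaperones carry the sequence by which the pathway is known, and it is shown here because the called members below include genes with and without it. Windows from 250 bases before to 50 bases after the transcription start were taken from RefSeq (GRCm38.p6) for 28 of the 31 members; Hyou1, Manf and Atf6 had none. The ER stress response element (ERSE, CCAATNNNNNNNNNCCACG) was searched on both strands. It was found in 39 of 32851 windows of all genes (0.119%) and in those of 8 members. A second form, ERSE-II (ATTGGNCCACG), was found in 12 windows of all genes (0.0365%) and in those of Dnajb11 and Herpud1. In the lines below the match is in capitals, read 5′ to 3′ on the strand of the gene; where the capitals start with CGTGG the element lies in the reverse direction.
Hspa5 (chr2:34772020-34772048, plus strand): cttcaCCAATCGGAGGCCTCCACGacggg
Hsp90b1 (chr10:86705633-86705661, minus strand): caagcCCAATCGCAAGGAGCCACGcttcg
Hsp90b1, other match (chr10:86705528-86705556, minus strand): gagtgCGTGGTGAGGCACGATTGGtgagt
Dnajc3 (chr14:118937822-118937850, plus strand): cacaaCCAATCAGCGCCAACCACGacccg
Creld2 (chr15:88819515-88819543, plus strand): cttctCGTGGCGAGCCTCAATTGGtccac
Calr (chr8:84847070-84847098, minus strand): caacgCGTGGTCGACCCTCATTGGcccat
Canx (chr11:50325795-50325823, minus strand): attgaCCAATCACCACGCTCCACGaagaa
Pdia6 (chr12:17266486-17266514, plus strand): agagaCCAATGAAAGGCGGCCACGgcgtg
Syvn1 (chr19:6046527-6046555, plus strand): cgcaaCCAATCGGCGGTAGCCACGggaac
Dnajb11, ERSE-II (chr16:22857847-22857867, plus strand): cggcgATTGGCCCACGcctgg
Herpud1, ERSE-II (chr8:94386372-94386392, plus strand): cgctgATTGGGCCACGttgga

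The element of the ATF4 branch, the C/EBP-ATF response element (CARE), was searched on both strands as TGATGNAAT or TGATGNAAC. In Chac1 and Herpud1 the capitals below show it in the reverse direction, starting with GTTGCATCA. It was in 580 of the 32851 windows (1.77%) and in those of 3 members, Asns, Chac1 and Herpud1. The motif TGACGTGG, a binding sequence of XBP1 and ATF6, was in 222 windows of all genes (0.676%) and in 0 of the members' windows. The matches describe these windows and are not shown to be bound in these cells.
Asns (chr6:7693219-7693237, minus strand): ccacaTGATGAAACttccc
Chac1 (chr2:119351043-119351061, plus strand): ctgccGTTGCATCActcct
Herpud1 (chr8:94386311-94386329, plus strand): ggcggGTTGCATCAgcccg

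The mature strand of the deleted microRNA is shown with its seed, bases 2 to 8, in capitals (RefSeq, GRCm38.p6, chr7:141221407-141221428, minus strand). A match to the seed, ACGCACA, was found in the annotated 3-prime UTR (GENCODE M21, GRCm38) of 0 of the 31 members and of 683 of 21669 genes (3.15%).
mmu-miR-210-3p: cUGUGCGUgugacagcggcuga

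The first comparison asked how the members responded to HI in KO cells. In KO cells 9 members rose after HI and 0 fell, at a Benjamini-Hochberg adjusted p under 0.05 over all tested genes with edgeR; such genes are named as called. They were the chaperone genes Hspa5, Dnajb11, Sdf2l1, Manf and Creld2, the lectin chaperone Calr, the disulfide isomerase Pdia6, the degradation factor Edem1 and the transcription factor Xbp1. Of all tested genes 7.01% were called in this comparison, 4.88% higher and 2.13% lower, and of the members 29.0%. The median log2 fold change was 0.51 over the members and -0.06 over all tested genes. In 12 members, every KO HI library lay above every KO sham library, which held for 6.06% of all tested genes. Changes are log2 fold changes ± standard error.

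Hspa5 (Gene ID 14828) encodes BiP, the main ER chaperone of the heat shock protein 70 family, which also binds the sensors. It had 1895, 1136, 1156 and 1530 CPM in KO HI libraries 1 to 4, against 518, 891, 810.0 and 683 CPM in KO sham libraries 1, 3, 4 and 6. Each KO HI library was above each KO sham library, with HI libraries 1 and 4 higher than 2 and 3. The log2 fold change was 0.98 ± 0.20 (adjusted p = 0.0132).

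Sdf2l1 (Gene ID 64136), a small ER protein that works with BiP and ERdj3, changed most among the members. It had 96.0, 44.5, 65.0 and 71.9 CPM in KO HI, against 14.9, 21.3, 19.0 and 23.4 CPM in KO sham libraries. The lowest KO HI library thus had more than any KO sham library. The change was 1.82 ± 0.27, a fold of 3.53 (adjusted p = 0.00414). Manf (Gene ID 74840), a BiP-binding protein that can also be secreted and protects neurons, had 186, 123, 147 and 186 CPM in KO HI and 89.0, 108, 85.7 and 80.7 CPM in KO sham libraries, again without overlap. It rose by 0.82 ± 0.14 (adjusted p = 0.00691). Creld2 (Gene ID 76737), an ER protein released under stress, had 64.5, 38.3, 43.3 and 61.8 CPM in KO HI, against 19.8, 30.8, 32.5 and 33.8 CPM in KO sham, a change of 0.83 ± 0.19 (adjusted p = 0.0245). Dnajb11 (Gene ID 67838), the BiP co-chaperone ERdj3, averaged 155 ± 27.4 CPM in KO HI and 104 ± 10.2 CPM in KO sham (SD, n = 4 each) and rose by 0.58 ± 0.12 (adjusted p = 0.0124).

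The other 4 of the 9 chaperones and co-chaperones were not called. Hsp90b1, the ER member of the heat shock protein 90 family, averaged 982 ± 215 CPM in KO HI and 671 ± 107 CPM in KO sham, a change of 0.55 ± 0.16 (adjusted p = 0.0576). For Hyou1, the nucleotide exchange factor of BiP, the change was 0.63 ± 0.18 (adjusted p = 0.0508), and its KO HI libraries (179 to 273 CPM) were all above the KO sham libraries (97.9 to 178 CPM). The co-chaperones Dnajb9 (0.14 ± 0.12) and Dnajc3 (0.16 ± 0.10) had the smallest changes of this role, with overlapping groups.

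Among lectin chaperones and disulfide isomerases 2 of 5 rose. Calr (Gene ID 12317), the calcium-binding lectin chaperone calreticulin, had 1817, 1304, 1285 and 1673 CPM in KO HI, against 741, 995, 964 and 954 CPM in KO sham libraries. These groups did not overlap, and the change was 0.73 ± 0.14 (adjusted p = 0.0108). Pdia6 (Gene ID 71853) averaged 394 ± 78.4 CPM in KO HI and 264 ± 46.9 CPM in KO sham, a change of 0.58 ± 0.15 (adjusted p = 0.0391). Canx, the membrane-bound lectin calnexin, had a change of 0.29 ± 0.09 and groups that did not overlap (559 to 709 CPM in KO HI, 492 to 552 CPM in KO sham). The isomerases Pdia3, the partner of both lectins, and Pdia4 had changes of 0.53 ± 0.18 and 0.51 ± 0.15 (adjusted p = 0.0925 and 0.0526).

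Of the 4 members of ER-associated degradation 1 rose. Edem1 (Gene ID 192193), which marks misfolded glycoproteins for removal, had 361, 178, 241 and 289 CPM in KO HI, against 74.0, 116, 146 and 139.8 CPM in KO sham libraries. All KO HI libraries were above all KO sham libraries, and the change was 1.17 ± 0.27, a fold of 2.25 (adjusted p = 0.0246). The changes of Herpud1 (0.58 ± 0.22), Syvn1 (0.35 ± 0.19) and Sel1l (0.26 ± 0.13) did not pass; Syvn1 encodes the ubiquitin ligase HRD1, Sel1l its adaptor, and Herpud1 a membrane protein of the same complex.

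The sensors and the members of the integrated stress response were not called in KO cells, while Xbp1 was. Ern1 (-0.04 ± 0.20), Eif2ak3 (0.06 ± 0.14) and Atf6 (0.21 ± 0.15) had 0 of 3 members called, with adjusted p from 0.452 to 0.929. Xbp1 (Gene ID 22433) had 222, 139.7, 142 and 199 CPM in KO HI, against 76.2, 113, 123 and 131 CPM in KO sham libraries. Its groups did not overlap, although KO HI 2 and 3 were close to the highest KO sham library, and it rose by 0.67 ± 0.17 (adjusted p = 0.0374). The transcription factors Atf4 (0.20 ± 0.17), Atf5 (-0.14 ± 0.15) and Ddit3 (0.21 ± 0.19), the last encoding the death-associated factor CHOP, were not called. Ddit3 had 18.6, 12.2, 16.6 and 14.1 CPM in KO HI and 16.2, 12.6, 14.5 and 9.92 CPM in KO sham, ranges that overlap. Of 6 targets and feedback genes of ATF4 and CHOP 0 were called, at adjusted p from 0.0818 to 0.885. The smallest of these p-values was that of Sesn2, a stress-induced inhibitor of the growth kinase mTORC1, with 15.9 to 16.7 CPM in KO HI and 12.6 to 14.2 CPM in KO sham, groups without overlap. Ppp1r15a, the phosphatase subunit GADD34 that reverses eIF2α phosphorylation, had a change of 0.62 ± 0.32 (adjusted p = 0.281), with means of 269 ± 100.2 CPM in KO HI and 176 ± 73.5 CPM in KO sham.

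**Figure D1:**
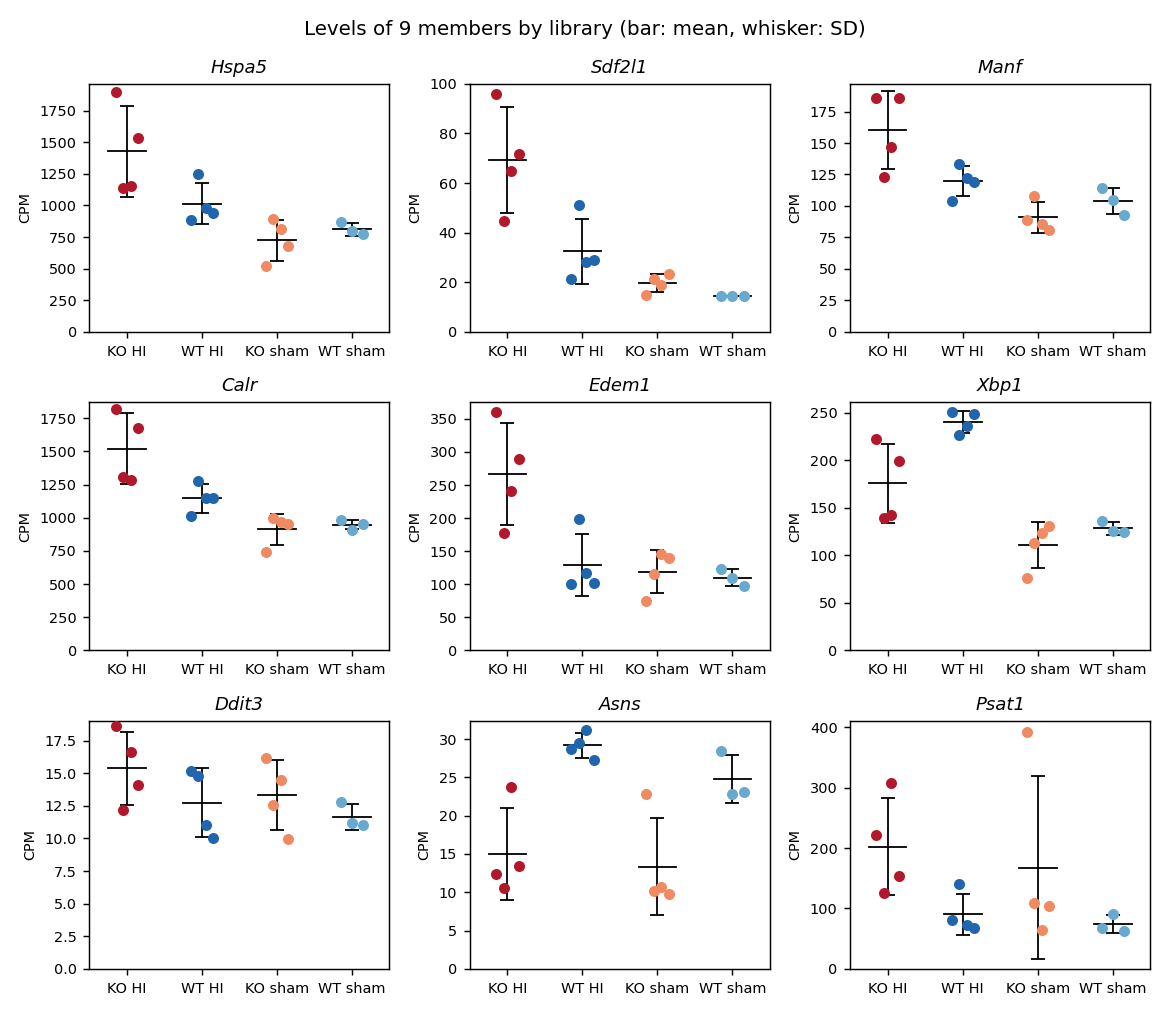
Levels of 9 members in CPM (y axis, linear from 0) in the 4 groups (x axis), 1 point per library; the bar is the mean and the whisker the SD. Sdf2l1 and Edem1 are highest in KO HI libraries, Xbp1 in WT HI libraries, and Asns lies between 9.71 and 23.8 CPM in KO libraries against 22.8 to 31.2 CPM in WT libraries.

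The calls in KO cells depended on the fit. The main fit shared an estimate of each gene's spread over the 4 groups. Standard errors for KO cells thus drew on WT libraries as well, and those for WT cells on KO libraries. With only the KO HI and KO sham libraries in the fit, edgeR called 0 of 31 members and 0.111% of all tested genes. In that edgeR fit 13 members had an unadjusted p under 0.05, and the smallest adjusted p was 0.0523. When the 5 neuron-rich libraries were dropped from the fit of all groups, KO HI and KO sham kept 2 libraries each. There 18 members (58.1%) were called, among them all 9 above, with 16.8% of all tested genes called. KO sham 1, the library with the highest neuron markers, was the lowest of its group for 23 of 31 members, which was not counted over all genes. Without it 12 members rose, with 13% of all tested genes called. Without KO HI 1, the library with the highest microglia markers, 5 rose (Calr, Dnajb11, Hspa5, Manf and Sdf2l1), with 2.39% of all tested genes called. Creld2 was also lost without KO HI 4 or KO sham 3, Edem1 without KO sham 3, and Pdia6 and Xbp1 without KO HI 4, KO sham 3 or 4, WT HI 1, 4 or 5 or any WT sham library, Pdia6 also without KO sham 6. Of 8 markers of infiltrating myeloid cells 6 rose in the same comparison, and of 10 microglia markers 3. Of 6 smooth muscle markers 2 fell, with a median log2 fold change of -1.07 and summed levels of 704 to 1292 CPM in KO HI and 1475 to 3971 CPM in KO sham. The part of these cells in the members' rise was not tested.

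The second comparison asked the same of WT cells. Here Xbp1 was the only called member, and it rose. It had 251, 226, 236 and 249 CPM in WT HI libraries 1, 2, 4 and 5, against 136, 125 and 124 CPM in WT sham libraries 1 to 3. The WT HI libraries lay close together and far above WT sham, and the log2 fold change was 0.91 ± 0.19 (adjusted p = 0.0299). Of all tested genes 1.82% were called, 1.38% higher and 0.444% lower, and of the members 3.23%. The median change was 0.22 over the members and -0.01 over all genes. For 12 members, each WT HI library was above each WT sham library, as was the case for 15.9% of all tested genes.

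Those 12 members lay in several roles: the chaperones Hspa5, Hyou1, Dnajb11, Dnajc3, Sdf2l1 and Creld2, the lectin Calr, the ligase gene Syvn1, and Xbp1, Atf5, Trib3 and Sesn2. Sdf2l1 had 21.5, 51.3, 28 and 28.8 CPM in WT HI and 14.5, 14.4 and 14.5 CPM in WT sham libraries. WT HI 2 stood well above the other WT HI libraries, which were in turn above WT sham; the change was 1.16 ± 0.29 (adjusted p = 0.067). Trib3 (Gene ID 228775), a pseudokinase induced by ATF4 and CHOP, had 3.03, 3.99, 3.27 and 3.17 CPM in WT HI, against 1.54, 1.90 and 1.77 CPM in WT sham. Its level was low, with 13 to 70 counts per library over all groups, and the change was 0.95 ± 0.30 (adjusted p = 0.151). Hspa5 averaged 1014 ± 163 CPM in WT HI and 812 ± 52.0 CPM in WT sham (SD, n = 4 and 3), a change of 0.32 ± 0.21 (adjusted p = 0.622). For Hsp90b1 the change was 0.02 ± 0.17 and for Dnajb9 -0.14 ± 0.13.

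WT HI 2 was the highest of its group for 18 of 31 members. It had 198 CPM of Edem1, against 100.1, 117 and 102 CPM in WT HI 1, 4 and 5, and 141 CPM of Psat1, a serine synthesis enzyme, against 80.7, 72 and 67 CPM. The same library had the highest microglia markers of the WT HI group, with a mean of 8.01 log2 CPM against 6.60 to 6.72 in the other WT HI libraries. KO HI 1 (highest for 18 members) and KO sham 4 (11 members) also had the highest microglia markers of their groups. WT sham 1 was highest for 20 members, with a microglia marker mean of 7.79 log2 CPM against 7.83 in WT sham 2. Such counts were not made over all genes. In WT HI 1, 4 and 5 the mean of the microglia markers was below that of each WT sham library (7.37 to 7.83). The mean of the infiltrating myeloid markers was 3.92, 3.43 and 3.61 log2 CPM there, above each WT sham library (2.15 to 3.13). Sdf2l1 and Xbp1 were also above each WT sham library. The part of these cells in the levels of the members was not tested. The Xbp1 call in WT was lost when any of the 7 WT libraries was left out (log2 fold change 0.82 to 0.95 over all alternatives), and 6 members were called in a fit of the WT HI and WT sham libraries alone: Creld2, Dnajb11, Hyou1, Sdf2l1, Trib3 and Xbp1. That is 19.4% of the members, in a fit that called 17.1% of all tested genes.

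**Figure D2:**
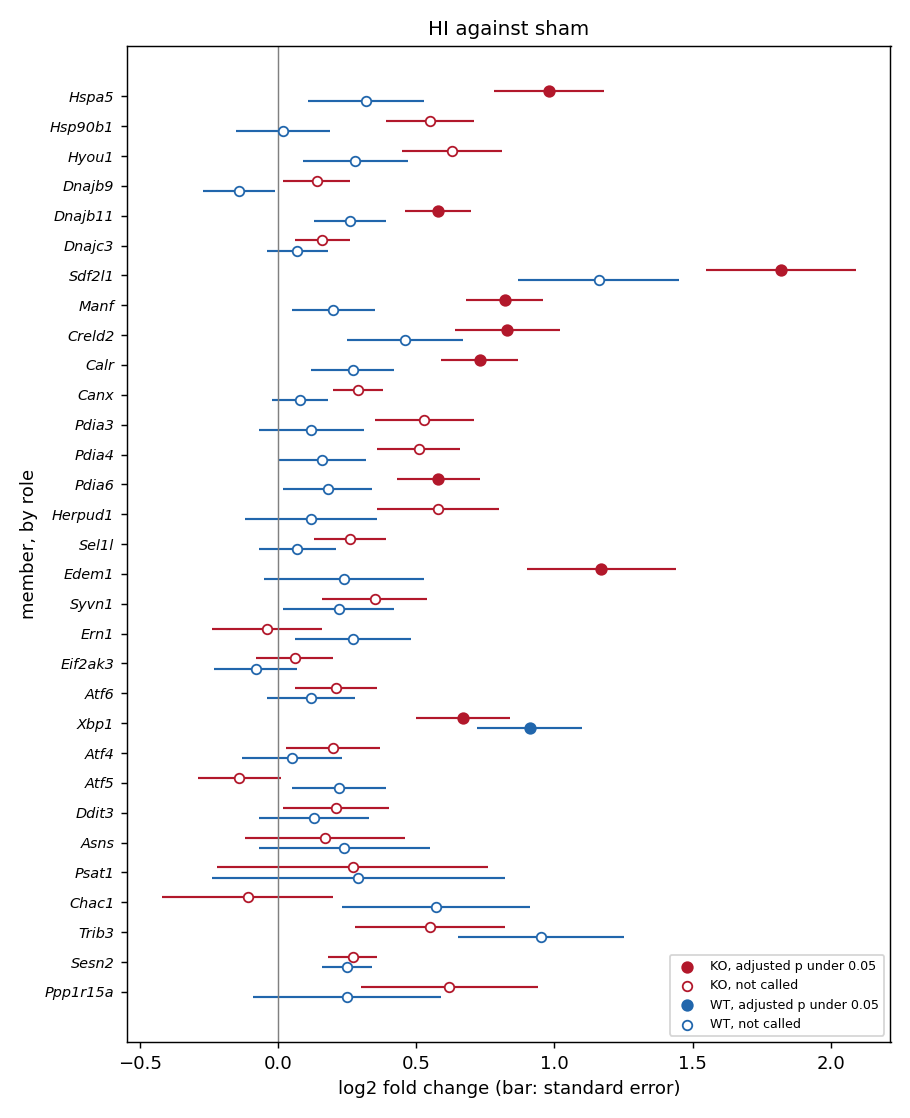
Log2 fold change of HI against sham (x axis) for each of the 31 members (y axis, by role) in KO and in WT cells; bars are standard errors and filled points are called. All 9 chaperones and co-chaperones have positive values in KO, and Xbp1 is filled in both genotypes.

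The plot of log2 fold changes by genotype shows larger values in KO than in WT for 24 of 31 members, against 47% of all tested genes. The members were read in the same libraries, so these are not independent observations. The difference was tested directly for each gene. No member was called for a difference between the HI responses, KO minus WT (edgeR; 0% of all tested genes were called, that is 0 genes; DESeq2 and limma-voom also called 0 members, and DESeq2 called 22 of all genes). At an unadjusted p under 0.05 edgeR had 5 members, Manf (0.62 ± 0.21), Hspa5 (0.66 ± 0.29), Hsp90b1 (0.53 ± 0.24), Calr (0.46 ± 0.20) and Edem1 (0.93 ± 0.40), and 768 of all genes. The smallest adjusted p of a member was 0.85. The median difference was 0.22 over the members and -0.02 over all genes. Sdf2l1 differed by 0.66 ± 0.39 and Xbp1 by -0.24 ± 0.26.

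**Figure D3:**
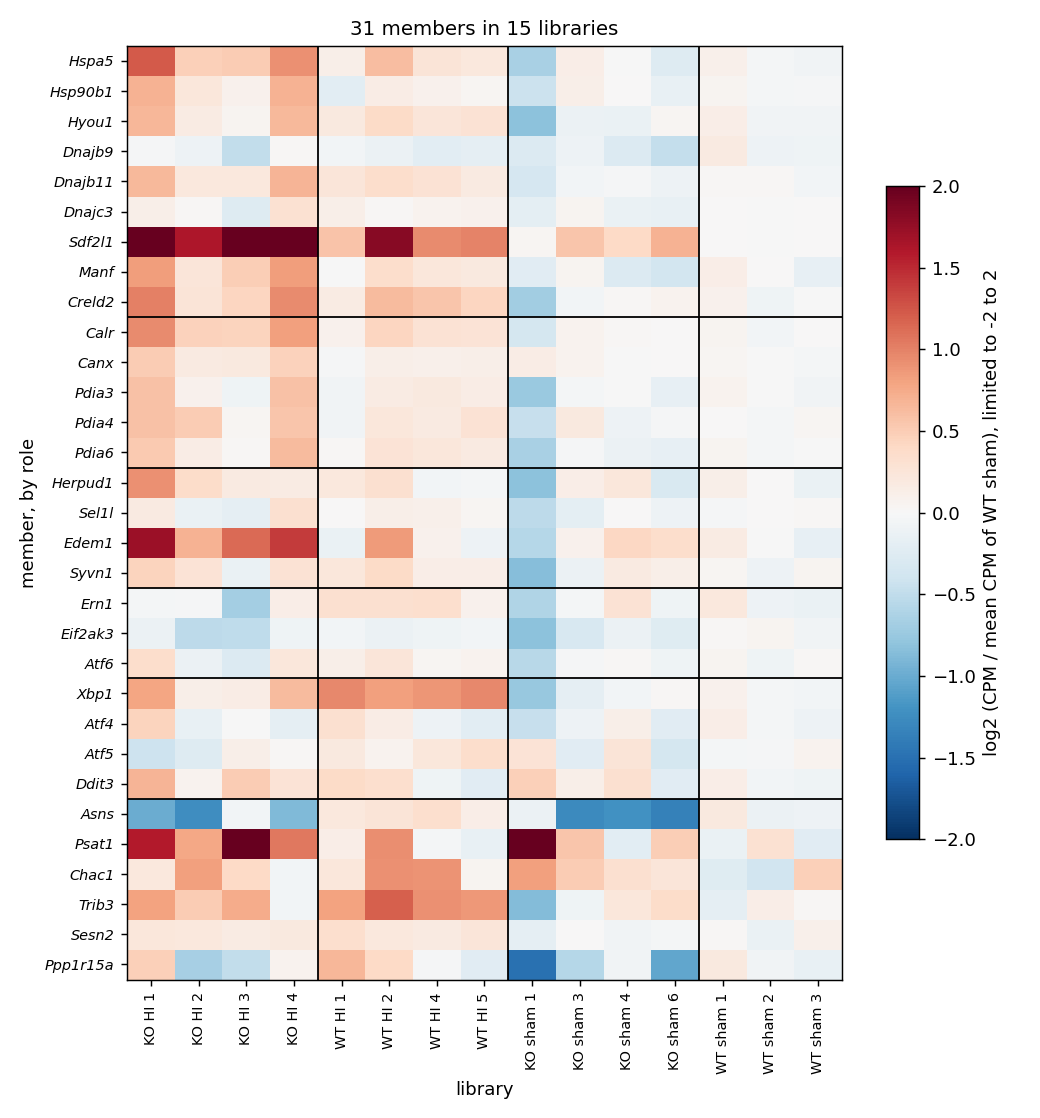
Level of each member (rows, by role) in each library (columns), as log2 of CPM over the mean CPM of WT sham, with colours limited to -2 to 2. Most chaperone rows are red in KO HI 1 and 4, KO sham 1 is blue for most members, and the Asns row is clearly blue in 6 of 8 KO libraries.

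The third comparison set KO HI against WT HI cells. After HI, Sdf2l1 and Edem1 were higher and Asns lower in KO than in WT cells, 3 of 31 members (9.68%). Of all tested genes 12.4% were called, 5.96% higher and 6.46% lower, so the share of members was no larger than that of all genes. The median change was 0.13 over the members and 0.06 over all genes. Sdf2l1 averaged 69.4 ± 21.2 CPM in KO HI and 32.4 ± 13.0 CPM in WT HI (SD, n = 4 each), and the KO HI library with the least (44.5 CPM) had less than WT HI 2. Its change was 1.10 ± 0.27 (adjusted p = 0.020). Edem1 had 178 to 361 CPM in KO HI and 100.1 to 198 CPM in WT HI, with WT HI 2 again inside the KO range, and a change of 1.05 ± 0.27 (adjusted p = 0.0271).

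Asns (Gene ID 27053), asparagine synthetase, is a main target of ATF4 and carries the CARE shown above. It had 12.4, 10.5, 23.8 and 13.4 CPM in KO HI, against 28.7, 29.5, 31.2 and 27.3 CPM in WT HI libraries. The WT HI values were close together, every KO HI value was below them, and KO HI 3 was the nearest. The log2 fold change was -0.96 ± 0.29 (adjusted p = 0.0473), with adjusted p from 0.00273 to 0.139 over the alternatives; the call was lost without KO HI 1, 2 or 4, any WT HI library, KO sham 3 or any WT sham library, and also with RLE normalization or with no filter on low counts. In the uninjured cells Asns had 22.8, 10.2, 10.7 and 9.71 CPM in KO sham, against 28.4, 22.8 and 23.1 CPM in WT sham libraries, a change of -0.89 ± 0.31 that was not called (adjusted p = 0.477). The KO libraries with the highest Asns, KO HI 3 and KO sham 1, also had the highest neuron and astrocyte markers of their groups (astrocyte means of 8.17 and 9.06 log2 CPM). Without the 5 libraries with high neuron markers Asns was called lower in KO both after HI and in sham cells, with 2 KO libraries in each group.

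Xbp1 was lower in each KO HI library than in each WT HI library: it had 139.7 to 222 CPM in KO HI and 226 to 251 CPM in WT HI, with a change of -0.45 ± 0.17 that edgeR did not call (adjusted p = 0.101). Calr (1285 to 1817 CPM in KO HI, 1010 to 1277 CPM in WT HI) and Canx (559 to 709 and 487 to 538 CPM in the same order) did not overlap either, and their changes of 0.41 ± 0.14 and 0.27 ± 0.09 were not called. Of the 31 members 2 had every KO HI library above every WT HI library, and 2, Asns and Xbp1, had every one below. The share of all tested genes without overlap was not counted for KO against WT, so these counts are a description only. The sensors had negative values in 3 of 3 cases, Ern1 at -0.39 ± 0.20, Eif2ak3 at -0.21 ± 0.14 and Atf6 at -0.05 ± 0.15, none called. Of all tested genes 56.3% had values above 0 in this comparison. Psat1 (Gene ID 107272) ranged from 126 to 307 CPM in KO HI and 67 to 141 CPM in WT HI, with a change of 1.16 ± 0.49 (adjusted p = 0.131).

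**Figure D4:**
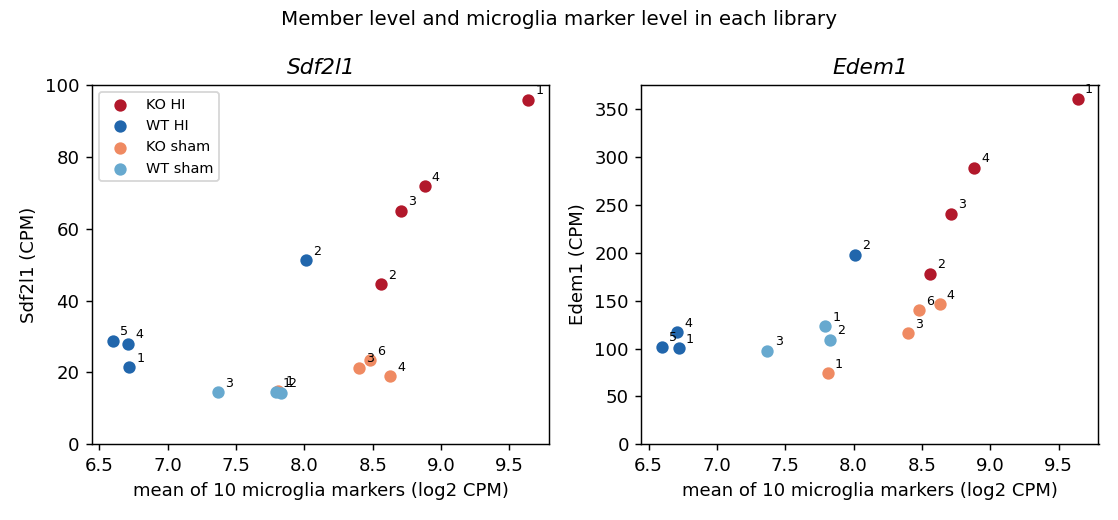
Sdf2l1 (left) and Edem1 (right) in CPM (y axes) against the mean of 10 microglia markers in log2 CPM (x axes), 1 point per library with its replicate number. KO HI libraries lie at 8.56 to 9.64 log2 CPM of microglia markers and WT HI 2, at 8.01, lies apart from the other WT HI libraries in both panels.

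Among the 4 KO HI libraries Sdf2l1 and Edem1 had the same order as the microglia markers, as the plot of member level against marker level shows. KO HI 1 had the highest marker mean (9.64 log2 CPM), the most Sdf2l1 and the most Edem1. KO sham libraries 3, 4 and 6 had marker means of 8.40 to 8.63, near that of KO HI 2 (8.56), and 19.0 to 23.4 CPM of Sdf2l1, against 44.5 CPM in KO HI 2. Of 14 pericyte markers 5 and of 10 endothelial markers 7 were called lower in KO than in WT cells after HI, against 6.46% of all tested genes. All 14 and all 10 had log2 fold changes below 0, with medians of -1.11 and -1.05. The part of these cells in the genotype difference was not tested. The calls of Sdf2l1 and Edem1 were lost without KO HI 1 and without WT HI 1, 4 or 5, where 0 of 31 members were called. Of all tested genes 4.51%, 3.24%, 3.63% and 3.76% were called in these fits, in the same order. When the 5 neuron-rich libraries were dropped 15 members (48.4%) were called, 14 higher and Asns lower, and the share of all tested genes called was 23.5%. In a fit of the KO HI and WT HI libraries alone the Sdf2l1 call was lost as well, while Edem1 and Asns were called.

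The fourth comparison set KO sham against WT sham cells. No member was called by edgeR, limma-voom or DESeq2, with 4 at an unadjusted p under 0.05 by edgeR: Asns, Eif2ak3 (-0.35 ± 0.15), Dnajb9 (-0.28 ± 0.13) and Psat1 (1.18 ± 0.54). Of all 14853 tested genes 1272 had an unadjusted p under 0.05 by edgeR, and 0.0135% were called. The median change was -0.12 over the members and 0.05 over all genes. Eif2ak3 had 31.8, 45.1, 51.6 and 47.4 CPM in KO sham, against 56.9, 58.0 and 53.2 CPM in WT sham libraries, which did not overlap. The Psat1 value rested on KO sham 1, with 392 CPM against 63.9 to 109 CPM in KO sham 3, 4 and 6 and 63 to 91.4 CPM in WT sham. In the other direction, Sdf2l1 was higher in each KO sham library (14.9 to 23.4 CPM) than in each WT sham library (14.4 to 14.5 CPM), with a change of 0.44 ± 0.29 (adjusted p = 0.498). Groups without overlap were found for 1 member above and 2 below, and the share of all tested genes was not counted here.

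**Figure D5:**
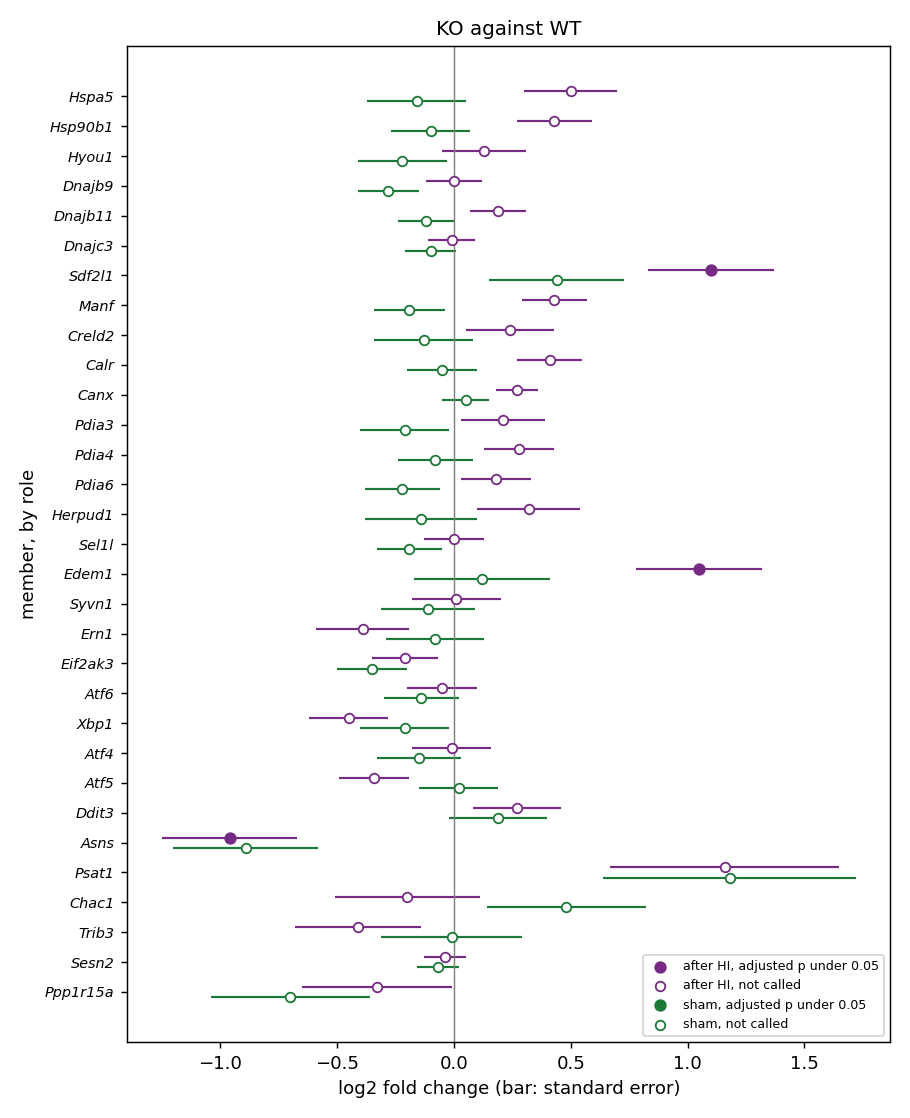
Log2 fold change of KO against WT (x axis) for each of the 31 members (y axis, by role), after HI and in sham cells; bars are standard errors and filled points are called. The filled points are Sdf2l1, Edem1 and Asns after HI, and Asns and Psat1 lie on the same side of 0 in both comparisons.

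The order of the groups differed between members. Mean Hspa5 was 1430 ± 359.6 CPM in KO HI, 1014 ± 163 in WT HI, 725 ± 163 in KO sham and 812 ± 52.0 in WT sham. Groups next to each other in mean Hspa5 did not differ beyond their spread. Mean Edem1 was 268 ± 77.2 CPM in KO HI, while WT HI (129 ± 46.6), KO sham (119 ± 32.7) and WT sham (109.8 ± 12.5) lay within each other's spread. Mean Xbp1 was 176 ± 41.3 CPM in KO HI, 241 ± 11.9 in WT HI, 111 ± 24.1 in KO sham and 128 ± 6.80 in WT sham. Mean Asns was 15 ± 6.01 CPM in KO HI, 29.2 ± 1.65 in WT HI, 13.4 ± 6.33 in KO sham and 24.8 ± 3.16 in WT sham, so that both WT means were above both KO means. Atf4 (209 ± 44.5, 210.2 ± 35.4, 182 ± 30.6 and 202 ± 17 CPM in the same order) and Ddit3 (15.4 ± 2.83, 12.8 ± 2.61, 13.3 ± 2.71 and 11.7 ± 0.98 CPM) had no neighbouring groups that differed beyond their spread. Chac1, an enzyme that degrades glutathione, was the lowest counted member, with 12 to 29 counts per library.

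Other genes of the pathway were read from 6 further lists. Of all tested genes 4.88% were called higher after HI in KO and 1.38% in WT cells. For KO against WT after HI 12.4% were called, 5.96% higher and 6.46% lower. Some lists were near these shares. Examples are the other folding enzymes after HI in KO cells (5.56% called) and the other ATF4 targets for KO against WT after HI (13%). Of 14 translocon and signal peptidase genes, which bring proteins into the ER, 5 rose after HI in KO and 2 in WT cells. Ssr4, a translocon-associated protein, rose by 0.75 ± 0.08 in KO cells (90.1 to 109 CPM in KO HI, 52.7 to 63.8 CPM in KO sham; adjusted p = 0.000737). It also rose by 0.48 ± 0.09 in WT cells (69.5 to 79.3 CPM in WT HI, 52.0 to 55.6 CPM in WT sham; adjusted p = 0.0187). Sec61b, a subunit of the translocation channel, rose by 0.51 ± 0.09 in KO and 0.55 ± 0.10 in WT cells. The signal peptidase subunits Spcs2 (0.70 ± 0.11) and Spcs3 (0.62 ± 0.14) rose in KO cells. After HI, 3 of the 14 genes were higher in KO than in WT cells, Ssr4 (0.40 ± 0.08), Spcs2 (0.54 ± 0.11) and Sec11c (0.42 ± 0.13).

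Of 18 other folding enzymes and co-chaperones 1 rose after HI in KO cells, the chaperone Erp29, at 0.82 ± 0.15 (217 to 325 CPM in KO HI, 121 to 167 CPM in KO sham), and 0 in WT cells. Erp29 was also higher in KO than in WT cells after HI (0.69 ± 0.14), with Fkbp2 (0.49 ± 0.11) and the oxidase Ero1b (0.61 ± 0.18). Of 18 other degradation genes 2 rose in KO cells, Selenos at 0.64 ± 0.10 and Aup1 at 0.66 ± 0.16, and 0 in WT cells. Of 16 other sensors, eIF2α kinases and regulators 0 were called after HI in either genotype; Creb3l2, a relative of ATF6, was lower in KO than in WT cells after HI (-0.70 ± 0.21).

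Of 23 other ATF4 targets 3 rose after HI in KO cells. They were the mitochondrial one-carbon enzymes Mthfd2 (1.2 ± 0.24) and Shmt2 (0.56 ± 0.15) and the stress transcription factor Atf3 (1.37 ± 0.38), and the list's median was 0.03. In WT cells 1 rose, Ddit4, at 0.89 ± 0.20. Ddit4, an inhibitor of mTORC1 that hypoxia also induces, was lower in KO than in WT cells after HI by a log2 fold change of -1.05 ± 0.18 (26.3 to 42.8 CPM in KO HI, 59.4 to 93.1 CPM in WT HI; adjusted p = 0.00637), as was Jdp2 (-0.49 ± 0.12). Phgdh, the first enzyme of serine synthesis and a gene strongly expressed in astrocytes, was higher (1.63 ± 0.50). Of 11 tested genes of 12 listed aminoacyl-tRNA synthetases 1 rose in KO cells, Gars1 at 0.30 ± 0.08, and 0 in WT cells; Eprs1 was higher in KO than in WT cells after HI (0.35 ± 0.11). In KO sham against WT sham cells 0 genes of these 6 lists were called, and in the difference between the HI responses likewise 0.

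The promoter elements can be set beside the calls. Of the 8 members with an ERSE, 4 (Hspa5, Creld2, Calr and Pdia6) were called in KO cells after HI and 4 (Hsp90b1, Dnajc3, Canx and Syvn1) were not. Over all members 9 of 31 were called there. Whether the element and the calls go together was not tested. Dnajb11, with an ERSE-II, was called and Herpud1 was not. Sdf2l1, Edem1 and Xbp1 were called and had none of the searched letters in their windows, and Manf was called and had no window. For 27 of the members' 30 windows the last bases were found in a transcript of the gene. An element outside a window would not be found. Of the 3 members with a CARE, 0 were called after HI in either genotype.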

How the data were processed

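The authors deposited a single table of expected counts per gene for the 15 libraries, without normalization. The unit was read from the values: between 3.12% and 3.92% of a library's values were fractional, and RSEM is a listed tool. The submitters' processing notes name mm39 as the build, and RSEM 1.3.1, DESeq2 1.4.5, Bowtie, HISAT2 2.1.0 and Bowtie2 2.4.4 as tools, whose roles are not given in the sources used here. Of 65535 lines 17892 had values and 17862 of these matched a RefSeq symbol (GRCm38.p6, used for names and printed sequence only).

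Expected counts were rounded. A single fit of 4 group means over the 15 libraries used edgeR 4.0.16 in R 4.3.3 (filterByExpr, TMM, quasi-likelihood test), with Benjamini-Hochberg adjustment over 14853 genes at 0.05. Standard errors were derived from the test. The biological coefficient of variation was 38.6%. Alternatives used DESeq2 1.42.0, limma-voom (limma 3.58.1), RLE factors, no filter, other sets of libraries and a replicate block. The procedure was tested on simulated data. The members, lists and rules for naming (every member; up to 4 called genes of each pathway list per comparison) were chosen with earlier results of these data known. Replicates were checked for duplicates: chi-square divided by its degrees of freedom was 11.3 or more for every replicate pair. It ran from 44.6 to 175 in KO HI and from 44.6 to 384 in KO sham pairs. In WT HI pairs it ran from 11.3 to 46.7 and in WT sham pairs from 19.6 to 24.3, so the spread was not equal between groups. Protein sequences were not used here.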

Additional observations from a re-analysis of the deposited data

Results flagged for a closer look

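In groups of 4 libraries, 93 sets of member values were looked at for a library far from the others of its group, and 5 were found, about what chance gives at 1 in 20 sets. KO sham 1 held 3 of them: Calr was 741 CPM there against 954 to 995 CPM in the other KO sham libraries, Asns was 22.8 CPM against 9.71 to 10.7 CPM, and Psat1 was 392 CPM against 63.9 to 109 CPM. KO sham 1 also had the highest neuron, astrocyte and oligodendrocyte lineage markers of the 15 libraries (means of 6.62, 9.06 and 7.94 log2 CPM). In WT HI libraries Canx was lowest in library 1, at 487 CPM against 531 to 538 CPM, and Ern1 was lowest in library 5, at 14.5 CPM against 17 to 17.2 CPM.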

How the results depend on the processing

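The number of called members, out of 31, was read under each alternative. For HI against sham in KO cells it was 9, and 15 with DESeq2, 18 without the 5 libraries with high neuron markers, and 0 both in the fit of the 2 KO groups alone and with the replicate block. For HI against sham in WT cells it was 1, and 3 with DESeq2, 6 in the fit of the 2 WT groups alone, 2 without the 5 libraries and 0 with the replicate block. For KO against WT after HI it was 3, and 9 with DESeq2, 15 without the 5 libraries and 0 with the replicate block. For KO against WT in sham cells it was 0, and 1 without the 5 libraries. Leaving out each library in turn gave 5 to 12, 0 to 2, 0 to 9 and 0 to 0 called members in the same order, and 0 for the difference of the HI responses. The share of all tested genes called moved as well: 13% with DESeq2 and 0.491% with the replicate block for HI against sham in KO cells, 5.27% and 0.108% in WT cells, and 22.9% and 0.141% for KO against WT after HI, where DESeq2 called 29% of the members. In the fit of 2 groups alone that share was 0.111% in KO cells and 17.1% in WT cells. Without the 5 libraries it was 16.8%, 5.13% and 23.5% for the comparisons that called 18, 2 and 15 members. The cause of these differences was not tested. No called member changed direction under any alternative. Between groups, 7 of 10 same-numbered pairs had a correlation of their deviations over 0.1, but not every pair of any comparison with 3 pairs did (-0.776, 0.276 and 0.783 for HI against sham in KO; 0.042, 0.29 and 0.387 for KO against WT after HI), and WT had only 2 pairs (0.266 and 0.198). The labels do not say what a number shares, so no pairing was taken as given, and the lost calls under the replicate block are not read as weaker effects. Over all genes the count in KO cells was 1041, with 355 to 1927 when a library was left out. In WT cells it was 271, with 48 to 554. For KO against WT it was 1844 after HI, with 481 to 3605, and 2 in sham cells, with 1 to 2. With 3 or 4 libraries a group, a change such as the 0.20 ± 0.17 of Atf4 in KO cells could not be told from 0.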
